A study of Mus musculus with 6 samples.

Results

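The transcripts of 10 genes of the surfactant system and of the alveolar type 2 cell were examined in lung tissue of mice after hemorrhagic shock (HS). They encode the surfactant proteins (*Sftpa1*, *Sftpb*, *Sftpc*, *Sftpd*), surfactant lipid handling (*Abca3*, *Lpcat1*), a protease and membrane proteins of the cell (*Napsa*, *Slc34a2*, *Lamp3*) and its transcription factor (*Nkx2-1*). They were chosen by name, with no measured value in the rule but with earlier results of these data known. All 10 were found by symbol among the 54532 genes counted. RNA came from 3 GR+/+ and 3 GRdim/dim mice, one library per mouse. In GRdim/dim mice a germline point mutation of the glucocorticoid receptor (GR) impairs its dimerization in every cell. GR+/+ mice were littermates without it, and both were on a mixed 129/SvEv and C57BL/6 background and 10 to 16 weeks old. All 6 mice were anesthetized and ventilated, bled to a mean arterial pressure of 35 mmHg for 1 h and resuscitated for 4 h, so these libraries hold no lung without HS. The groups held 2 female and 1 male GR+/+ and 1 female and 2 male GRdim/dim mice. The comparison asks whether the lung transcriptome after HS differs when the receptor cannot form dimers normally.

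Alveolar type 2 cells line the alveoli beside the flat alveolar type 1 cells. They make surfactant, a film of lipid and protein that lowers surface tension so that alveoli do not collapse at the end of a breath. Its lipids and the small hydrophobic proteins SP-B and SP-C are packed in lamellar bodies and secreted together, while SP-A and SP-D are larger collectins that also bind microbes. Glucocorticoids are known for driving the maturation of these cells before birth, and NKX2-1 is a transcription factor that many surfactant genes depend on.

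The promoters of the genes are shown because binding sites of GR and NKX2-1 are what a reader would look for first. RefSeq windows of the 250 bases before the start, in build GRCm38.p6, were at hand for 7 of the 10 genes, the others being *Sftpc*, *Sftpd* and *Napsa*. For all 7, bases shortly after the window occurred in an annotated transcript of the gene, which checks the orientation and not the exact start. The *Slc34a2* window ended at 53049352, inside the gene, which begins at 53038081. Starts named here are those of the windows. The sequences below run 5′ to 3′ on the strand of the gene. Capitals mark the GR half-site AGAACA and the NKX2-1 core CAAG, each searched on both strands and hence also as TGTTCT and CTTG. *Sftpa1* and *Nkx2-1* are printed for their many cores, *Sftpb* for its core close to the start, and *Lamp3* for its half-site.
Sftpa1, chr14:41131538-41131787, plus strand: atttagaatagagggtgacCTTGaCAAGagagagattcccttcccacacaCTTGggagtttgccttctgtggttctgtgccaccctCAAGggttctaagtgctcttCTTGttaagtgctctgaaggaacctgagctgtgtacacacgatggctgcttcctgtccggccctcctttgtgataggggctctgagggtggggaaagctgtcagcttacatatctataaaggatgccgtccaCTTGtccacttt
Sftpb, chr6:72304360-72304609, plus strand: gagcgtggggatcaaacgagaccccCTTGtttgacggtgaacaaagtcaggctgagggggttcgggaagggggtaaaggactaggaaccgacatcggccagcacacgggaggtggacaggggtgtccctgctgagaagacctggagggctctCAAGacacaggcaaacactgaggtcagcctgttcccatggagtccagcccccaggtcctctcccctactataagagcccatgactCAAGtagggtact
Nkx2-1, chr12:56536909-56537158, minus strand: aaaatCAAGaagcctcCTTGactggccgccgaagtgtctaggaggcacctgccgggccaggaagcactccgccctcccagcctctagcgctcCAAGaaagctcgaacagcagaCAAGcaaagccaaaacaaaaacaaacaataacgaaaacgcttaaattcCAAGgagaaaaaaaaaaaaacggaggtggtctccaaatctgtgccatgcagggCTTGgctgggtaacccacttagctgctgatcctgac
Lamp3, chr16:19706366-19706615, minus strand: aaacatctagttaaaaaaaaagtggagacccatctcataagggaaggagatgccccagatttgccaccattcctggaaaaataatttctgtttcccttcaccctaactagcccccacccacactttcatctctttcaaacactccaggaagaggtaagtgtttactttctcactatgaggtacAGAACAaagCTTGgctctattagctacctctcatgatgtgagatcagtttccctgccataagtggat

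The full GR palindrome, AGAACA and TGTTCT with any 3 bases between them, was found in 0 of the 7 windows and in 0.00913% of all 32851 windows of this length. A half-site was found in 1 of the 7, that of *Lamp3*, 67 bases before the start, and in 16.1% of all windows. The core CAAG was found in 5 of the 7 windows and in 86.6% of all windows, which makes its presence alone common. *Sftpa1* and *Nkx2-1* held 6 cores each, a number reached or passed by 2.9% of all windows, where the median was 2. *Sftpb* held 3, *Abca3* 2 and *Lamp3* 1, and *Slc34a2* and *Lpcat1* held 0, as did 13.4% of all windows. The longer form CAAGTG, present in 11.6% of all windows, stood at 2 places in the *Sftpa1* window, and 1 of them began 14 bases before the start. These are matches of letters in a short window, and nothing about binding follows from them or from their absence.

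The 6 libraries held 15687734 to 32082940 counts, and mitochondrial genes took 1.15% to 1.76% of them. *Sftpc* had the second highest count of all genes in each of the 6, so the labelled tissue is lung. *Nr3c1*, which encodes GR, had a log2 fold change of -0.05, and since a point mutation need not change a transcript's level this does not check the labels. Of 2 transcripts known to be induced by GR, both were lower in each GRdim/dim library than in any GR+/+ library. The CPM ranges of the genotypes were separate for 14.8% of all genes tested. The study itself reported both transcripts as reduced in these libraries, so they are not an independent check of the labels. *Fkbp5*, encoding a co-chaperone of GR, had a log2 fold change of -1.25 and *Tsc22d3*, encoding GILZ, of -0.99, with adjusted p of 0.103 and 0.175 in edgeR's quasi-likelihood test and of 0.000504 and 0.00705 in DESeq2. GRdim/dim library 3 stood apart. Among 10687 genes with a mean of at least 10 CPM (counts scaled to a library total of 1000000), the median of the longest quintile minus that of the shortest was -0.55 in it on the log2 scale and 0.03 to 0.24 in the other 5 libraries.

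The surfactant proteins were abundant in both genotypes, and *Sftpc* exceeded every other member. Levels are compared between genes as TPM, in which counts are divided by exon length and then scaled to the same total. *Sftpc* reached a mean of 32902 TPM (SD 5380.0, n = 6 libraries; 27633 to 41558) and ranked 2 among all genes. *Sftpb* followed at 5996 TPM (5285 to 7202), *Sftpa1* at 1855 (1599.8 to 2341) and *Slc34a2* at 1066 (748 to 1594). Each of these stood above the next in all 6 libraries and their ranges did not overlap. After them the ranges overlapped. *Sftpd* had 505 TPM, *Lamp3* 317, *Nkx2-1* 308, *Lpcat1* 274, *Napsa* 218 and *Abca3* 127. All 5 neighbouring pairs from *Sftpd* to *Abca3* overlapped, and *Lamp3* was above *Nkx2-1* in 4 of 6 libraries and the other pairs kept their order in 5 of 6. The span from *Sftpc* to *Abca3* was 259-fold. Together the 10 genes held 3.74% to 5.21% of all TPM.

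None of the 10 genes was called different between the genotypes. All 10 passed the filter on low counts, and 0 of 10 reached an adjusted p under 0.05 with an absolute log2 fold change over 0.5 in edgeR's quasi-likelihood test, where 0.169% of the 16568 genes tested did. At an unadjusted p under 0.05 the count was also 0 of 10, against 9.6% of all genes (4.91% higher and 4.68% lower in GRdim/dim mice). DESeq2 called 0 of 10 as well, against 1.7% of the 16150 genes it tested. The CPM ranges of the genotypes were separate for 0 of 10, against 14.8% of all genes. Of the 10, 4 had higher and 6 had lower estimates in GRdim/dim mice, with a median log2 fold change of -0.09 beside 0.01 for all genes. Summed over the 10 genes, GR+/+ libraries had 21260, 18001 and 26089 CPM, and GRdim/dim libraries had 18084, 22429.8 and 26568 CPM. Both genotypes thus spanned almost the same range of this sum, in which *Sftpc* and *Sftpb* weighed most. With a covariate for sex-linked expression, since the groups differ in the number of females, 0 of 10 were called and estimates ran from -0.39 (*Slc34a2*) to 0.24 (*Sftpc*). In bulk lung, fewer alveolar type 2 cells and less RNA per cell cannot be told apart.

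**Figure D1:**
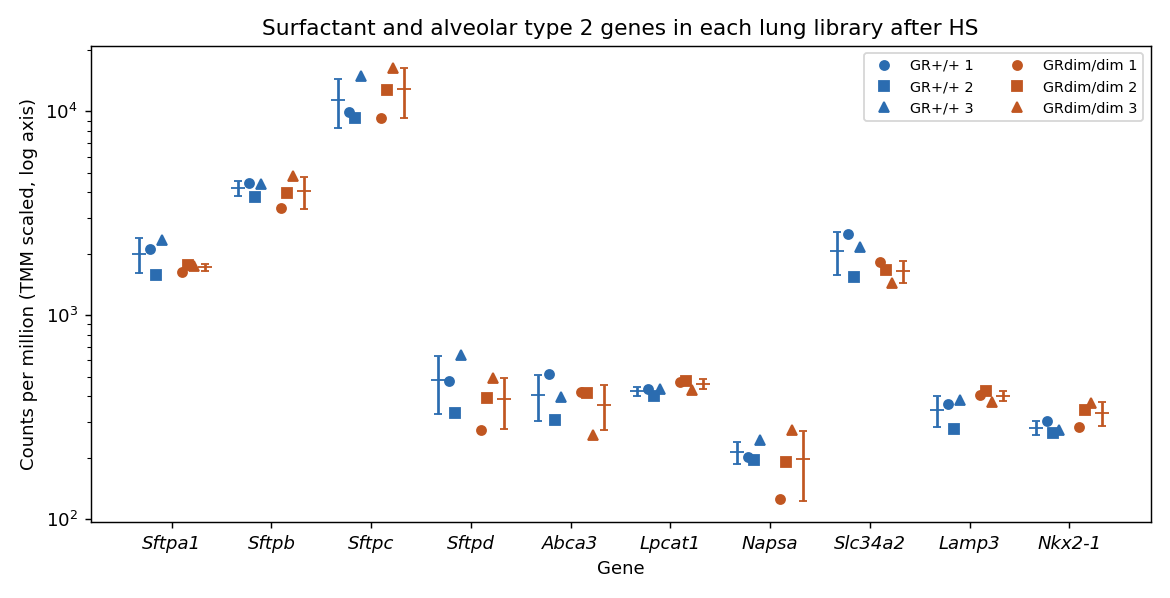
CPM (TMM scaled, log axis) of each of the 10 genes in the 3 GR+/+ (blue) and 3 GRdim/dim (orange) libraries, with mean and SD of 3 beside the points. The libraries of the genotypes overlapped for every one of the 10 genes, from *Napsa* with 126 to 273 CPM up to *Sftpc* with 9269.7 to 16394 CPM.

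*Sftpc* (ENSMUSG00000022097, chr14:70520949-70524081, minus strand) encodes SP-C, the small protein made in the lung by type 2 cells alone. It had 9885, 9325 and 14865 CPM in GR+/+ libraries and 9269.7, 12771 and 16394 CPM in GRdim/dim libraries. Each genotype held low and high libraries, and the lowest and the highest value both came from GRdim/dim mice. Means were 11358 ± 3049.7 and 12812 ± 3562 CPM (SD, n = 3), a log2 fold change of 0.17 (SE 0.29, 95% interval -0.46 to 0.81, adjusted p = 0.92 by edgeR). With single libraries left out, the estimate ran from -0.04 (without GRdim/dim library 3) to 0.42 (without GR+/+ library 3), and the cause was not tested.

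*Sftpb* (ENSMUSG00000056370, chr6:72304610-72314371, plus strand) encodes SP-B, without which newborns cannot breathe. GR+/+ libraries had 4458, 3807 and 4378 CPM and GRdim/dim libraries had 3374, 3976 and 4796 CPM. The GRdim/dim libraries enclosed those of GR+/+ mice, with the lowest and the highest of all 6. The log2 fold change was -0.06 (SE 0.22, 95% interval -0.54 to 0.43, adjusted p = 0.968 by edgeR) and the estimate was the closest to 0 of the 10.

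*Sftpa1* (ENSMUSG00000021789, chr14:41131782-41136452, plus strand) encodes the collectin SP-A. It had 2106, 1566 and 2329 CPM in GR+/+ libraries and 1637, 1769 and 1746 CPM in GRdim/dim libraries. GRdim/dim mice were close to one another (1717 ± 70.1 CPM), and all lay within the GR+/+ range (2000.4 ± 393 CPM; SD, n = 3). For GRdim/dim against GR+/+ this gave a log2 fold change of -0.22 (SE 0.21, 95% interval -0.69 to 0.25, adjusted p = 0.821 by edgeR).

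*Sftpd* (ENSMUSG00000021795, chr14:41172214-41185149, minus strand), a neighbour of *Sftpa1* on chromosome 14, encodes the collectin SP-D. It had 474, 332 and 634 CPM in GR+/+ libraries and 274, 393 and 490.2 CPM in GRdim/dim libraries. The ratio of the highest to the lowest library was 2.31, the largest of the 10, and the spread was found within each genotype. Between the genotypes the log2 fold change was -0.31 (SE 0.28, 95% interval -0.93 to 0.30, adjusted p = 0.796 by edgeR).

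*Abca3* (ENSMUSG00000024130, chr17:24351950-24410201, plus strand) encodes the transporter that moves phospholipid into lamellar bodies. It had 515, 306 and 397 CPM in GR+/+ libraries and 419, 415 and 259 CPM in GRdim/dim libraries. The highest value came from GR+/+ library 1 and the lowest from GRdim/dim library 3, and in between both other GRdim/dim libraries lay above both other GR+/+ libraries, opposite to the sign of the estimate. The log2 fold change was -0.16 (SE 0.25, 95% interval -0.72 to 0.40, adjusted p = 0.917 by edgeR). It was 0.05 without GR+/+ library 1 and 0.04 without GRdim/dim library 3, and the cause was not tested. The antisense gene *D330041H03Rik* shares 914 exon bases with *Abca3*. It had 57 to 178 counts where *Abca3* had 4018 to 12498, and with no strand setting named the reads of such a pair cannot be told apart.

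*Lpcat1* (ENSMUSG00000021608, chr13:73467197-73516422, plus strand) encodes an acyltransferase that remodels phosphatidylcholine into the saturated form found in surfactant. It had 436, 399.9 and 436 CPM in GR+/+ libraries and 471, 477 and 432 CPM in GRdim/dim libraries. It varied least of the 10, with a ratio of 1.19 between the highest and the lowest library, and only GRdim/dim library 3 lay within the GR+/+ range. Its log2 fold change was 0.12 (SE 0.17, 95% interval -0.26 to 0.49, adjusted p = 0.903 by edgeR).

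*Napsa* (ENSMUSG00000002204, chr7:44572380-44586862, plus strand) encodes napsin A, an aspartic protease that takes part in cutting the SP-B precursor. It had 200.4, 195 and 244 CPM in GR+/+ libraries and 126, 191 and 273 CPM in GRdim/dim libraries. The 2 extremes were both GRdim/dim mice. Its log2 fold change was -0.12 (SE 0.26, 95% interval -0.69 to 0.45, adjusted p = 0.943 by edgeR), and 0.13 without GRdim/dim library 1. The antisense gene *Gm15396*, which shares 502 exon bases with *Napsa*, had 0 to 13 counts.

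*Slc34a2* (ENSMUSG00000029188, chr5:53038081-53071664, plus strand) encodes the sodium-dependent phosphate transporter NaPi-IIb of the apical membrane. It had 2513, 1532 and 2148 CPM in GR+/+ libraries and 1824, 1675 and 1431 CPM in GRdim/dim libraries. The 2 highest libraries were GR+/+, while GR+/+ library 2 lay among the GRdim/dim libraries. The log2 fold change of -0.33 (SE 0.23, 95% interval -0.85 to 0.19, adjusted p = 0.728 by edgeR) was the farthest from 0 of the 10. It was -0.16 without GR+/+ library 1.

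*Lamp3* (ENSMUSG00000041247, chr16:19653378-19706375, minus strand) encodes DC-LAMP, a membrane protein of lamellar bodies and lysosomes. It had 368, 275 and 385 CPM in GR+/+ libraries and 406, 423 and 377 CPM in GRdim/dim libraries. The 2 highest libraries were GRdim/dim, and GRdim/dim library 3 lay just under the highest GR+/+ library. The log2 fold change was 0.23 (SE 0.19, 95% interval -0.19 to 0.65, adjusted p = 0.774 by edgeR), and it was 0.10 without GR+/+ library 2 and also 0.10 with a correction for gene length and GC content.

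*Nkx2-1* (ENSMUSG00000001496, chr12:56531958-56536908, minus strand) encodes the homeodomain factor of lung and thyroid epithelium. It had 304, 264 and 273 CPM in GR+/+ libraries and 282, 341 and 371 CPM in GRdim/dim libraries. GRdim/dim libraries 2 and 3 were above every GR+/+ library, and GRdim/dim library 1 lay within their range. Means were 280.3 ± 21.1 and 331 ± 44.9 CPM (SD, n = 3). They give a log2 fold change of 0.24 (SE 0.18, 95% interval -0.15 to 0.64, adjusted p = 0.742 by edgeR).

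**Figure D2:**
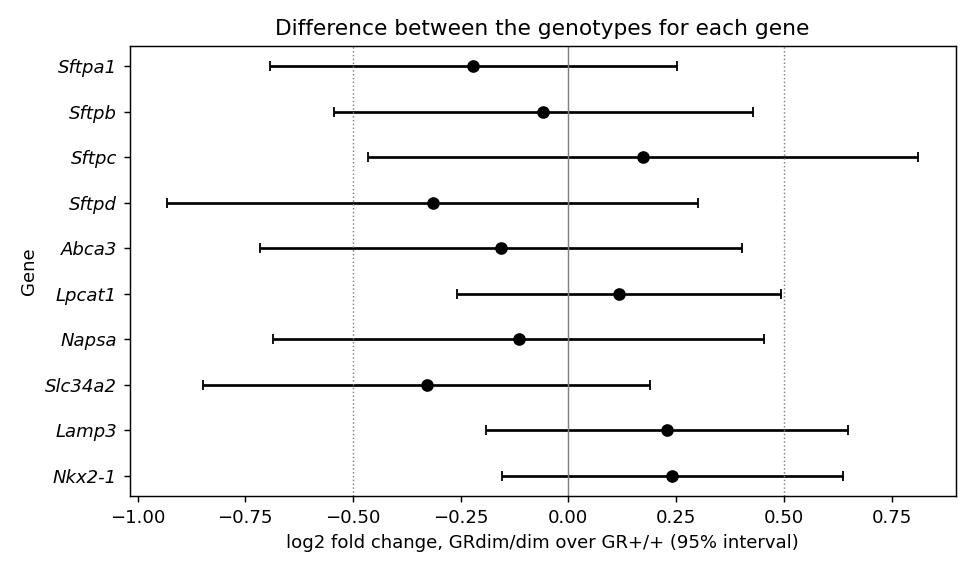
Log2 fold change of GRdim/dim over GR+/+ for each gene (points) with its 95% interval from edgeR (bars), with dotted lines at an absolute value of 0.5. Every interval includes 0, and the estimates run from -0.33 for *Slc34a2* to 0.24 for *Nkx2-1*.

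Exact two-sided permutation tests over the 6 libraries gave p of 0.2 to 0.7 for the 10 genes, where 3 against 3 mice cannot go below 0.1. Over the 10 genes the 95% intervals span -0.93 to 0.81 on the log2 scale, or 0.525-fold to 1.75-fold. For *Lpcat1*, the narrowest, the interval is 0.836-fold to 1.41-fold, and for *Sftpc* it is 0.725-fold to 1.75-fold. These p-values do not show that the genotypes are alike.

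The 10 genes did not vary as one block between mice. Over the 6 libraries, after removing each gene's own mean log2 CPM, the closest pairs were *Lpcat1* and *Lamp3*, with a root-mean-square difference of 0.13, *Abca3* and *Slc34a2* with 0.16, and *Sftpb* and *Nkx2-1* with 0.17. *Abca3* and *Napsa* were farthest apart of the 45 pairs at 0.58. Their log2 ratio, *Abca3* over *Napsa*, ranged from -0.07 in GRdim/dim library 3 to 1.73 in GRdim/dim library 1. *Sftpc* and *Abca3* differed by 0.55, with a log2 ratio of 4.26 to 5.98. *Sftpb*, *Sftpc*, *Sftpd* and *Napsa* were lowest in GRdim/dim library 1 and above their own means in GR+/+ library 3 and GRdim/dim library 3. *Abca3* and *Slc34a2* were both highest in GR+/+ library 1 and lowest in GRdim/dim library 3. This is a description over 6 libraries, with no test, and the genes of one library share its depth and preparation.

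**Figure D3:**
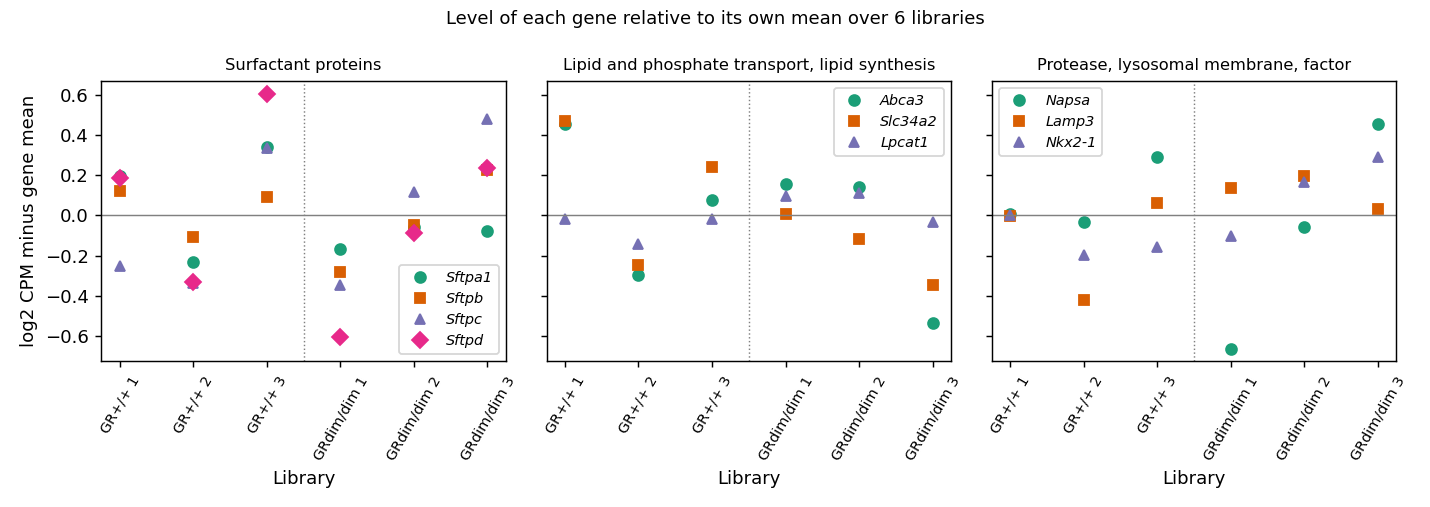
Log2 CPM of each gene minus its own mean over the 6 libraries, in 3 panels of genes; the dotted line parts the genotypes. In GRdim/dim library 3, *Sftpc* lies at 0.48 and *Napsa* at 0.45, while *Slc34a2* lies at -0.35 and *Abca3* at -0.53.

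The libraries also differed in their trends with length and base composition. In GRdim/dim library 3 the shortest quintile of all genes, up to 2624 bases, had a median of 0.30 above its mean over the libraries, and the longest quintile, from 7942 bases, one of -0.25. The longest members were the lowest in this library, *Abca3* (8797 bases) at -0.53 and *Slc34a2* (5013 bases) at -0.35, and the shortest, *Sftpc*, was the highest at 0.48. *Napsa*, with 2660 bases and 0.45, stood above the members of like length, *Sftpd* (2417 bases, 0.23), *Nkx2-1* (2842 bases, 0.29) and *Sftpa1* (2860 bases, -0.08). GRdim/dim library 1 had the opposite sign of both trends. Its longest quintile was 0.24 above the shortest. The GC-richest quintile minus the poorest was -0.39 in it and 0.40 in GRdim/dim library 3. GR+/+ library 3, in which *Sftpc* (0.34) and *Sftpd* (0.60) were also above their means, had a length difference of 0.03 and a GC difference of -0.17. The part of these trends in each gene's value was not tested. With a correction for both, chosen after seeing the data, 0 of 10 genes were called, and the estimates were -0.04 for *Abca3*, 0.09 for *Sftpc* and -0.31 for *Slc34a2*.

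**Figure D4:**
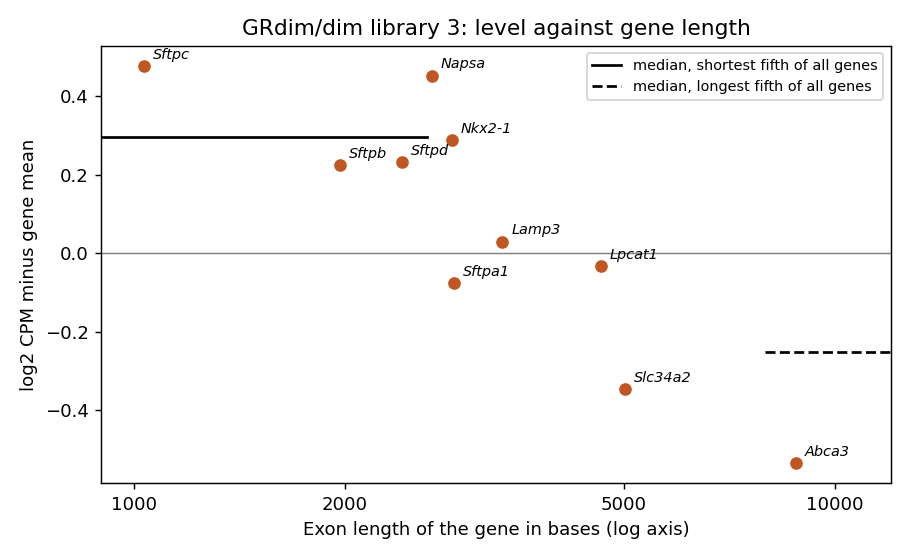
Log2 CPM minus gene mean in GRdim/dim library 3 against exon length in bases (log axis) for the 10 genes (points), with the medians of the shortest quintile (solid line) and the longest quintile (dashed line) of all genes. *Sftpc*, the shortest at 1034 bases, lies highest and *Abca3*, the longest at 8797 bases, lies lowest.

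Ratios within a library do not move with its scaling. Against the geometric mean of the other 9 members, *Lamp3* had log2 ratios of -1.51, -1.59 and -1.51 in GR+/+ libraries and of -1.03, -1.20 and -1.42 in GRdim/dim libraries. *Nkx2-1* had -1.81, -1.65 and -2.07 in GR+/+ libraries and -1.61, -1.54 and -1.45 in GRdim/dim libraries. For these 2 of the 10 genes every GRdim/dim library was above every GR+/+ library, with a mean difference of 0.32 for *Lamp3* and 0.31 for *Nkx2-1*. Of all genes tested, 9.42% had ratios to the members that did not overlap between the genotypes. The other 8 members overlapped, with differences of -0.29 to 0.24. These ratios are a description and carry no test, and a gene's ratio rises where the other 9 fall.

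The genes whose profile over the 6 libraries came closest to the mean profile of the members were *Opa3*, *Gla*, *Tmem30b*, *Stk38l* and *Cradd*. Their root-mean-square difference from it was 0.04, 0.05, 0.05, 0.06 and 0.06 on the log2 scale, where the median of the 10677 candidate genes was 0.28. The members themselves lay at 0.10 (*Sftpa1*) to 0.32 (*Abca3*) from it. The mean profile ranged from -0.23 in GR+/+ library 2 to 0.19 in GR+/+ library 3.

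The genes around the members were taken from 14 lists, which were chosen with earlier results of these data known. They cover the synthesis of surfactant lipid, its processing, epithelial transcription factors, the alveolar and airway epithelium and the other cells of the lung. Of 177 genes, 176 were tested, edgeR called 0, and 33 (18.8%) had an unadjusted p under 0.05, beside 9.6% of all genes. DESeq2 called 12 of the 177, beside 1.7% of all genes. Since the lists were so chosen, a share above that of all genes is not independent evidence, here or list by list. With no filter on low counts edgeR called 20 of them, and 0 of the 10 members.

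Of the 18 other markers of type 2 cells, 3 had higher and 0 lower levels at an unadjusted p under 0.05, where 4.91% of all genes were higher and 4.68% lower, and the list's median log2 fold change was 0.03. The 3 were *Cxcl15*, *Ppp1r14c* and *Ctsh*. Some genes stand in 2 lists, and *Ctsh* is counted again among the processing genes below. *Cxcl15* encodes lungkine, a chemokine of lung epithelium. It had 516, 399 and 589 CPM in GR+/+ libraries and 1259.9, 1319.6 and 898 CPM in GRdim/dim libraries, and the genotypes did not overlap. Its log2 fold change was 1.21 (SE 0.23, 95% interval 0.70 to 1.72), with an adjusted p of 0.0961 by edgeR and of 5.67e-05 by DESeq2. It is also in the study's own list of genes that differ in these libraries, so it is not independent evidence. *Ppp1r14c* had 52.2 to 64.7 CPM in GR+/+ and 81.7 to 90.6 CPM in GRdim/dim libraries (log2 fold change 0.60, edgeR adjusted p = 0.244). *Cbr2*, the most abundant of the list, which encodes a carbonyl reductase, had a log2 fold change of 0.06.

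Estimates of surfactant lipid synthesis were lower for more genes than higher, and those of processing went both ways. Of 22 lipid genes, 15 had lower estimates, 3 of them at an unadjusted p under 0.05 and 0 higher ones, and the median was -0.17. *Scd2*, a stearoyl-CoA desaturase, had 1334, 1329 and 1676 CPM in GR+/+ and 833, 956 and 895 CPM in GRdim/dim libraries. The genotypes did not overlap, and the log2 fold change was -0.69 (SE 0.20, adjusted p = 0.286 by edgeR and 0.0287 by DESeq2). *Gpam*, the mitochondrial enzyme that starts glycerolipid synthesis, had a log2 fold change of -0.81 (edgeR adjusted p = 0.436). It had 95.8, 68.3 and 81.8 CPM in GR+/+ and 62.1, 53.8 and 24.3 CPM in GRdim/dim libraries. With single libraries left out the estimate ran from -1.06 to -0.50. Of 16 processing genes, 1 was higher and 2 were lower at an unadjusted p under 0.05. *Ctsh* encodes cathepsin H, a protease that takes part in cutting the precursors of SP-B and SP-C. It had 450.1, 261 and 470.3 CPM in GR+/+ and 581, 578 and 569 CPM in GRdim/dim libraries (log2 fold change 0.55, edgeR adjusted p = 0.491). *Rab3d*, a small GTPase of secretory vesicles, had a log2 fold change of -0.44, and *Adgrf5*, a receptor that limits the surfactant pool, of -0.57, with edgeR adjusted p of 0.427 and 0.5. For *Adgrf5*, GRdim/dim library 3 had 609 CPM and the other GRdim/dim libraries 1038 and 1118 CPM.

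Among 18 epithelial transcription factors, 14 had lower estimates and the median was -0.21, opposite in sign to *Nkx2-1*. At an unadjusted p under 0.05, 1 was higher and 1 lower. *Cebpd*, a factor induced by glucocorticoids and by inflammation, had 364, 298 and 274 CPM in GR+/+ and 284, 705 and 778 CPM in GRdim/dim libraries. The difference rested on GRdim/dim libraries 2 and 3 (log2 fold change 0.92, edgeR adjusted p = 0.417). *Tfcp2l1* had a log2 fold change of -0.50 (edgeR adjusted p = 0.521).

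**Figure D5:**
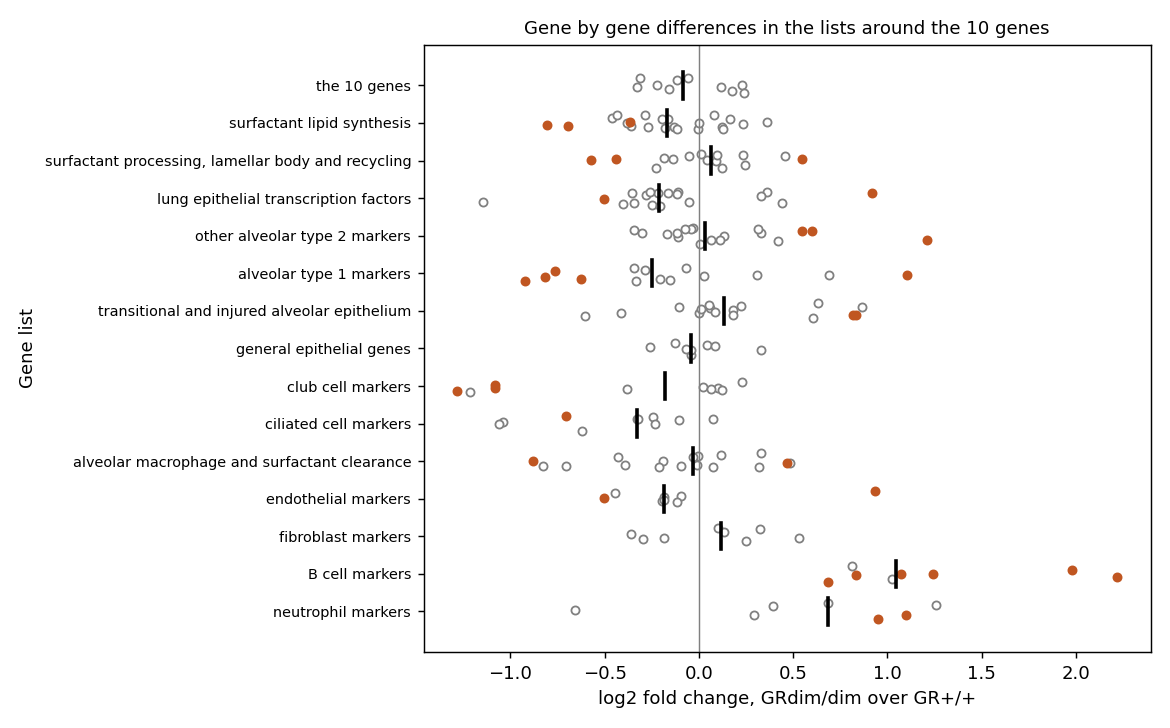
Log2 fold change of GRdim/dim over GR+/+ for each gene of the 14 lists and for the 10 members; filled points have an unadjusted edgeR p under 0.05 and black bars are medians. The 10 members lie between -0.33 and 0.24 with 0 filled points, while the B cell markers have the highest median of the lists, 1.05.

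General epithelial genes had 1441 to 2133 summed CPM in GR+/+ and 1519 to 1871 CPM in GRdim/dim libraries, a median of -0.04, and 0 of 8 at an unadjusted p under 0.05. *Cdh1*, E-cadherin, had a log2 fold change of -0.04. Scaling the libraries to these genes left 0 of 10 members called. Of 14 markers of alveolar type 1 cells, 1 was higher and 4 were lower at an unadjusted p under 0.05, with a median of -0.25. *Col4a4*, a chain of the basement membrane collagen, had a log2 fold change of -0.82 and *Lmo7*, encoding a junction protein, of -0.76 (edgeR adjusted p = 0.204 and 0.261, DESeq2 0.0227 and 0.0285). The higher gene was *Igfbp2*, encoding an insulin-like growth factor binding protein and named here after its values were seen. It had 133, 147 and 212 CPM in GR+/+ and 228, 296 and 534 CPM in GRdim/dim libraries, a log2 fold change of 1.10 (edgeR adjusted p = 0.285), and was called by DESeq2. *Ager*, the most abundant type 1 marker, had -0.07. *Col4a4*, *Lmo7* and *Igfbp2* are in the study's own list as well. Of 16 genes of transitional and injured alveolar epithelium, 2 were higher and 0 lower at that level, *Plaur* with 0.83 and *Lcn2* with 0.82 on the log2 scale (edgeR adjusted p = 0.297 and 0.342). Of all 16, 12 had higher and 4 lower estimates, with a median of 0.13, and the most abundant, *Nupr1*, had -0.60. The cells that these transcripts came from were not tested.

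Markers of B cells and neutrophils had higher estimates beside the values of the 10 genes. All 8 B cell markers had higher estimates, 6 of them at an unadjusted p under 0.05, where 4.91% of all genes were higher, and edgeR called 0 of the 8. They mark 1 cell type in the same mice, so the 6 are not separate evidence. Their summed level was 89.0 to 181 CPM in GR+/+ and 213 to 729 CPM in GRdim/dim libraries. *Igkc*, an immunoglobulin light chain, had a log2 fold change of 1.98 (adjusted p = 0.175 by edgeR, 1.82e-05 by DESeq2). Of 7 neutrophil markers tested, 6 had higher estimates, and their summed level was 519, 338 and 274 CPM in GR+/+ and 1114, 359 and 487 CPM in GRdim/dim libraries. Only GRdim/dim library 1 lay above the GR+/+ range. The part of either in the values of the 10 genes was not tested.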

How the data were processed

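RNA from the lungs of 3 GR+/+ and 3 GRdim/dim mice was captured by poly(A), and each mouse gave one library. Per the labels and the table itself, the authors deposited whole, unscaled counts per gene with each gene's exon length. The submitters' processing notes name DESeq2 and mm10. The aligner, the counting tool and the use of strand are not given in the sources used here. Of 54532 genes, 54409 were in GENCODE M21 and 53499 had the same position there, among them the 10 members. The exon length equalled the merged exons for 9 of 10 members. *Abca3* had 8797 against 9374 bases. There were 0 genes without a name and 0 other columns of values.

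GRdim/dim and GR+/+ libraries were compared without covariates by the quasi-likelihood test of edgeR 4.0.16 under R 4.3.3, with TMM scaling, filterByExpr and robust dispersion, and Benjamini-Hochberg adjustment over 16568 genes. A gene was called at an adjusted p under 0.05 and an absolute log2 fold change over 0.5. For log2 CPM the prior count was 2. Intervals (95%) are the coefficient and its SE times the t quantile. Exact permutation tests used scipy 1.17.1. Replicates of one genotype differed by a chi-square of 19.2 to 62.9 per gene, where counting error gives 1, so the spread between mice limits precision.

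The rule names the 10 members, the 2 genes of each list with the smallest p and its most abundant gene, the 5 genes nearest in profile, *Nr3c1*, *Fkbp5*, *Tsc22d3* and genes whose exons overlap a member. *Igfbp2* was added after its values were seen. The members and lists were chosen with earlier results of these data known. Alternatives were DESeq2 1.42.0, RLE scaling, scaling to general epithelial genes, no filter, a filter at 10 counts in each library, no threshold on fold change, a block for replicate number, sex-linked expression as covariate, and leaving out single libraries. A correction for GC content and length was added after the data were seen. The code was tested on simulated data.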

Additional observations from a re-analysis of the deposited data

How the results depend on the processing

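Under all 15 alternatives, the number of the 10 genes called was 0, and 0 had an unadjusted p under 0.05. Over 14 settings for each of the 10 genes, 135 of the estimates kept the sign and 5 turned it, each by leaving out a library. Estimates with single libraries left out ran from -0.20 to 0.065 for *Sftpb* (above 0 without GRdim/dim library 1), -0.042 to 0.42 for *Sftpc* (below 0 without GRdim/dim library 3), -0.32 to 0.054 for *Abca3* (above 0 without GR+/+ library 1 or GRdim/dim library 3) and -0.42 to 0.13 for *Napsa* (above 0 without GRdim/dim library 1), and the cause was not tested. The other 6 kept their sign, at -0.36 to -0.10 for *Sftpa1*, -0.52 to -0.06 for *Sftpd*, -0.50 to -0.16 for *Slc34a2*, 0.08 to 0.16 for *Lpcat1*, 0.10 to 0.32 for *Lamp3* and 0.15 to 0.35 for *Nkx2-1*. Other genes near 0 turned sign too, *Ager* (-0.26 to 0.20), *Cbr2* (-0.15 to 0.24), *Cdh1* (-0.13 to 0.13), *Nr3c1* (-0.13 to 0.057) and *Tppp3* (-0.11 to 0.33). *Ager* was 0.012 and *Cdh1* 0.018 with the sex covariate, and *Cbr2* was -0.0080 and *Tppp3* -2.79e-05 with the correction for GC content and length.

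The number of all genes called was 28. It was 522 with no filter, 274 with DESeq2, 56 with scaling to general epithelial genes, and 4 (without GR+/+ library 2) to 22 (without GRdim/dim library 1) with a library left out. It was 12 without GR+/+ library 1, 17 without GR+/+ library 3 and 14 without GRdim/dim library 3. The number of list genes called was 0. It was 20 with no filter, 12 with DESeq2, 1 (*Igkc*) with epithelial scaling, and 0 to 2 with a library left out, the 2 being *Ighm* and *Igkc* without GRdim/dim library 1. Over all settings adjusted p ran from 0.494 to 1 for the 10 genes, 1.39e-05 to 0.291 for *Cxcl15*, 0.0287 to 0.634 for *Scd2*, 0.00675 to 0.476 for *Col4a4*, 0.0263 to 0.596 for *Lmo7*, 6.6e-05 to 0.546 for *Scgb3a1*, 0.000195 to 0.567 for *Muc5b*, 0.00255 to 0.403 for *Chil3*, 1.82e-05 to 0.425 for *Igkc*, 1.04e-06 to 0.286 for *Fkbp5* and 0.000317 to 0.399 for *Tsc22d3* (edgeR and DESeq2). The deviations of same-numbered libraries correlated at 0.22, 0.04 and -0.05, and those of differently numbered ones at -0.27 to 0.19. With 3 libraries per genotype this cannot tell whether the replicate numbers pair the libraries. With the replicate number as a block, 34 genes were called in all, 2 of the lists (*Ighm* and *Igkc*) and 0 of the 10. Exact tests of 3 against 3 mice cannot pass 0.05.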

Other observations

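Airway epithelium and the cells that border or clear the alveolar surface were measured beside the 10 genes. Of 10 markers of club cells, the secretory cells of the small airways, 0 were higher and 3 lower at an unadjusted p under 0.05, with a median log2 fold change of -0.18. *Scgb1a1*, their main secretory product, had 13822, 17753 and 27513 CPM in GR+/+ and 19997, 25414 and 23944 CPM in GRdim/dim libraries, a log2 fold change of 0.23 (edgeR adjusted p = 0.874). *Scgb3a1*, another secretoglobin, and *Muc5b*, a gel-forming mucin, both had log2 fold changes of -1.08, with adjusted p of 0.289 and 0.3 by edgeR and of 0.0285 and 0.0337 by DESeq2. For both genes every GRdim/dim library was below every GR+/+ library. Of 10 markers of ciliated cells, 9 had lower estimates and the median was -0.33. *Foxj1*, the factor that sets up motile cilia, had -0.70, *Rsph1* -1.04 and *Tppp3* 0.07, with adjusted p of 0.483, 0.521 and 0.968 by edgeR. With single libraries left out, *Foxj1* ran from -0.98 (without GRdim/dim library 3) to -0.44 (without GR+/+ library 3 or GRdim/dim library 1) and *Rsph1* from -1.54 (without GRdim/dim library 3) to -0.55 (without GR+/+ library 3).

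Of 17 genes of alveolar macrophages and surfactant clearance, 1 was higher and 1 lower at an unadjusted p under 0.05. *Chil3*, a chitinase-like protein abundant in alveolar macrophages, had 244, 250.3 and 264 CPM in GR+/+ and 161, 156 and 95.6 CPM in GRdim/dim libraries (log2 fold change -0.88, adjusted p = 0.202 by edgeR and 0.0171 by DESeq2). *Itgax*, encoding CD11c, had 0.47 (edgeR adjusted p = 0.491). Of 8 endothelial markers, 7 had lower estimates and 1 a higher one, with a median of -0.19. *Cldn5*, a tight junction protein, had a log2 fold change of 0.94 and *Kdr*, the VEGF receptor, of -0.50, while *Ptprb* had -0.19, with adjusted p of 0.288, 0.491 and 0.86 by edgeR. DESeq2 called *Cldn5* (adjusted p = 0.0273) and neither *Kdr* nor *Ptprb*. *Cldn5* had 1119 CPM in GRdim/dim library 3 and 535 and 697 CPM in the other GRdim/dim libraries. Of 8 fibroblast markers, 0 had an unadjusted p under 0.05, with *Dcn* at 0.53 and *Inmt* at -0.36 (edgeR adjusted p = 0.556 and 0.681). *Nupr1*, the most abundant gene of the injured epithelium list, had -0.60, and the general epithelial genes *Cldn7* and *Elf3* had 0.33 and -0.26 (edgeR adjusted p = 0.653, 0.748 and 0.842). The neutrophil genes *Retnlg* and *S100a9* had 1.10 and 0.95 (edgeR adjusted p = 0.253 and 0.471), and the B cell gene *Ighm* 2.22 (edgeR adjusted p = 0.286). Of these, DESeq2 called *Retnlg* (adjusted p = 0.0225) and neither *S100a9* nor *Ighm*.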
